A study of Mus musculus with 8 samples.

Results

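The mitochondrial carriers of the Slc25 family were examined in the border zone of infarcted mouse hearts. The family was taken as the protein-coding genes whose symbol is Slc25a with a number, leaving out Slc25a20. GENCODE holds 46 such symbols, and 43 of them had a locus of their own among the 35299 loci of the deposited annotation. The other 3 were left out, because their locus also held another gene or because no locus was matched. The series compares 4 hearts with myocardial infarction (MI) and 4 sham-operated hearts (Sham), all from C57BL/6J mice aged 12 weeks and taken 2 weeks after surgery. No allele, transgene or drug is named for either group. Groups follow the sample titles and the treatment label. Some of the remaining labels disagree: all 4 MI samples carry the Sham tissue source, MI replicates 1 to 3 are described with a sham infarct, and Sham replicate 4 is described with an infarct. The Sham titles also carry a remark of re-analysis that the MI titles lack, so an effect of library origin cannot be told apart from that of infarction. RNA was selected for poly(A) and read in pairs, and each value below is the deposited normalised read count of a locus (its reads divided by 1 size factor per library).

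Slc25 proteins are carriers of the mitochondrial inner membrane, with a few members in other membranes. They are small proteins built of repeated membrane-spanning units, and they exchange nucleotides, phosphate, carboxylic acids, amino acids, cofactors and metal ions between cytosol and matrix. In heart muscle the ADP/ATP carrier and the phosphate carrier supply ATP synthase with its substrates and export the ATP made, and the aspartate/glutamate and oxoglutarate/malate carriers form the malate-aspartate shuttle, which brings the reducing power of cytosolic NADH into mitochondria.

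The sequences just upstream of 4 members are shown because the results turn on them: Slc25a4 and Slc25a3 were the most abundant carriers and lower in MI hearts, Slc25a5 is the paralog of Slc25a4 that did not pass the test, and Slc25a1 had one of the largest increases. Each is the stretch of 250 bases before the RefSeq start on build GRCm38.p6, written 5′ to 3′ on the gene's strand. They lie at chr8:46211063-46211312 (minus strand), chrX:36795347-36795596 (plus), chr10:91123968-91124217 (minus) and chr16:17928220-17928469 (minus). Capitals mark the GC box GGGCGG, the CCAAT box CCAAT and the E-box CACGTG on either strand.
Slc25a4: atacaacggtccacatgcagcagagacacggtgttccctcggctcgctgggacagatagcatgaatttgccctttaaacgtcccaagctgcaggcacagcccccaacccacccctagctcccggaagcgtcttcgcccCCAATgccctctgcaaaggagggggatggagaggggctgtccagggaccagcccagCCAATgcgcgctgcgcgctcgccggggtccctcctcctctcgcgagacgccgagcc
Slc25a5: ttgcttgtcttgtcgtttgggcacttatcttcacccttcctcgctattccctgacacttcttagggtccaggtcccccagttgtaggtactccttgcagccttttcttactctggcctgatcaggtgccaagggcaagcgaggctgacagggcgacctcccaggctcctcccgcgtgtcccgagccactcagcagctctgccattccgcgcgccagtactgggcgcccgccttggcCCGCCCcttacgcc
Slc25a3: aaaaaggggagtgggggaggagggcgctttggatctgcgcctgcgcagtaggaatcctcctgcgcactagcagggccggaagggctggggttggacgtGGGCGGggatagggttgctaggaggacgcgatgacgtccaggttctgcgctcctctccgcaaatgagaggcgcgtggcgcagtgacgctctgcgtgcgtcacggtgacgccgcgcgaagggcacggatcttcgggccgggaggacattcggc
Slc25a1: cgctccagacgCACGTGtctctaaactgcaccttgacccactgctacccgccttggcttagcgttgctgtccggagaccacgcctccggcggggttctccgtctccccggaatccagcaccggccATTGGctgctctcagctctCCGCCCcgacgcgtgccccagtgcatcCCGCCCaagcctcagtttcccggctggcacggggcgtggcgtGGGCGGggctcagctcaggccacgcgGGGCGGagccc

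The Slc25a4 stretch held 2 CCAAT boxes and no GC box, those of Slc25a5 and Slc25a3 held 1 GC box each, and that of Slc25a1 held 4 GC boxes, 1 CCAAT box and 1 E-box. RefSeq windows (250 bases before to 50 after a start) were matched for 34 member genes with 44 windows. Only the 250 bases before the start were searched. Member windows on chromosome 18 were left out, but those of the other genes there were kept. The GC box was in 68.2% of the member windows and 32.7% of all 32851 windows, or 42.6% of those of coding genes. The CCAAT box was in 45.5% of member windows and 33.8% of all windows, or 35.4% of those of coding genes. The E-box was in 18.2% of member windows and 6.02% of all windows, or 6.63% of those of coding genes. The element TNAAGGTCA, known as a binding motif of oestrogen-related receptors, was in 0 member windows and 1.14% of all windows, or 0.955% of those of coding genes. By outcome, the GC box was in 10 of 16 genes lower in MI hearts, 5 of 6 higher and 7 of 9 that did not pass. The CCAAT box was in 9 of 16 lower, 3 of 6 higher and 4 of 9 that did not pass. A match of letters does not show that a factor binds there.

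Of the 43 carriers, 39 had a mean of at least 10 normalised reads and entered the test. The test was limma on log2(value + 1) over 19186 loci, with Benjamini-Hochberg adjusted p under 0.05 as the threshold, and differences are MI minus Sham with their standard error. In MI hearts 20 carriers fell, which is 51.3% of those tested, beside 20.1% of all loci (21.4% of named coding loci). Another 6 rose, which is 15.4%, beside 20.8% of all loci (24.9% of named coding loci), and 13 did not pass. Among these 13 the smallest unadjusted p in limma was 0.0548 (Slc25a17). Both edgeR and DESeq2, run on reads rebuilt from the values, called 19 lower and 7 higher, without Slc25a31 and with Slc25a17. The median difference of the 39 carriers was -0.26 with the deposited size factors, against -0.02 over all loci tested. Scaled to the library total, 11 of 39 carriers passed as lower, beside 7.81% of all loci, and 15 of 39 as higher, beside 44.4% of all loci. The carriers' median was then 0.048 and that of all loci 0.29. Scaled to the total outside the mitochondrial genome, 14 passed as lower (11.2% of all loci) and 12 as higher (33.2% of all loci), and the medians were -0.068 and 0.17. With the deposited scaling the falls ran from -0.94 to -0.26 and the increases from 0.29 to 0.93, so with this scaling and all 8 libraries no tested carrier changed as much as 2-fold, and 11 fell by over 1.5-fold. Other scalings took Slc25a1 up to 1.24, Slc25a43 up to 1.23 and Slc25a45 up to 1.03. Leaving out 1 library took Slc25a33 down to -1.11, Slc25a29 to -1.08, Slc25a31 to -1.05 and Slc25a42 to -1.03, and Slc25a1 up to 1.03.

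MI and Sham libraries did not overlap in 18 of the 20 carriers that fell (20% of all loci were lower without overlap) and in all 6 that rose (19.7% of all loci were higher without overlap). The exceptions among those that fell were Slc25a31 and Slc25a39. Of the 20 falls, 11 passed the threshold under all 5 scalings tried, as did the 6 increases. The 11 were Slc25a3, Slc25a4, Slc25a11, Slc25a12, Slc25a13, Slc25a22, Slc25a26, Slc25a29, Slc25a33, Slc25a38 and Slc25a42. The scalings moved carriers together and mostly upward: Slc25a4 ran from -0.66 to -0.31 (deposited -0.62) and Slc25a1 from 0.88 to 1.24 (deposited 0.93). Passing under all 5 was therefore easier for an increase than for a fall. The share of all loci that did so was not counted. Since RNA came from whole tissue, fewer cells of a type and less RNA per cell cannot be told apart in any of these values. The p-values measure the spread between samples, which the series states to be biological replicates. Exons on the opposite strand covered over 10% of the exonic bases of 5 carriers (53.1% in Slc25a18, 21.2% in Slc25a35, 15.8% in Slc25a24, 15.4% in Slc25a39 and 10.2% in Slc25a11), and whether the libraries keep strand is not given in the sources used here.

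**Figure D1:**
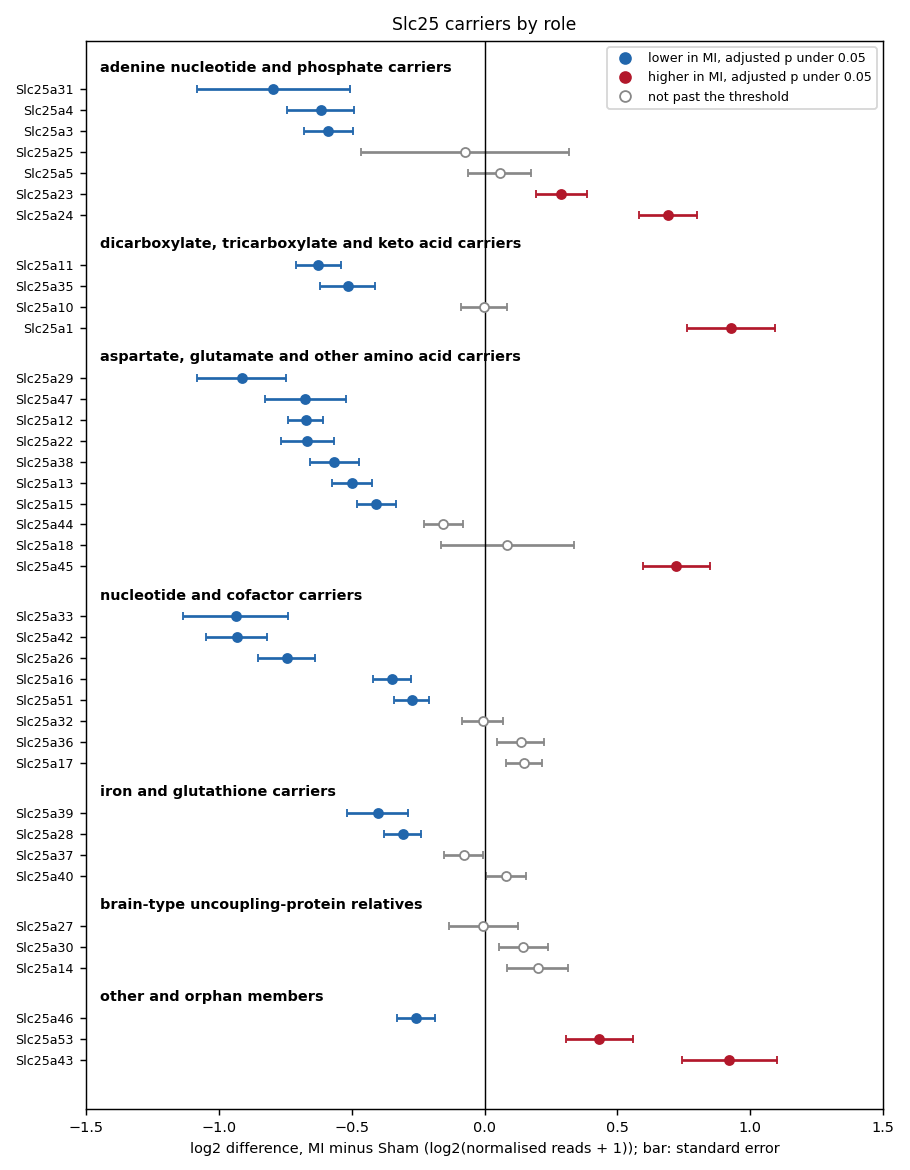
Log2 difference (MI minus Sham, log2(normalised reads + 1), x axis) of the 39 tested carriers, grouped by substrate; points are limma estimates and bars standard errors. Blue points (20) passed the threshold lower in MI, red points (6) higher in MI, and open points (13) did not pass.

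Libraries held 165 to 190.2 M reads in MI and 108 to 161 M reads in Sham hearts. Mitochondrial transcripts took 23.8 to 26.1% of the signal in MI and 29.2 to 32.3% in Sham libraries. Marker genes of other cells moved with the groups, and their part in the carrier results was not tested. Beside the marker counts, 20.1% of all loci were lower and 20.8% higher. Cardiomyocyte markers summed to 2515326 to 2997554 normalised reads in MI and 3335360 to 4124067 in Sham libraries, and 3 of 5 fell. Fibroblast markers summed to 589370 to 913855 in MI and 107998 to 161994 in Sham libraries, and 8 of 8 rose. Macrophage markers rose in 7 of 7 (32735 to 41215 in MI, 17378 to 24733 in Sham libraries), lymphocyte markers in 6 of 6 (310.5 to 595 and 202 to 293), adipocyte markers in 4 of 5 (178 to 14045 and 30.7 to 64.5), markers of cycling cells in 5 of 5 (4320 to 7220 and 719 to 2494) and those of smooth muscle in 4 of 6 (120393 to 143363 and 119734 to 134382). Of 7 endothelial markers 1 fell (139636 to 164303 in MI, 138579 to 172727 in Sham libraries). Of 3 erythroid markers 1 fell (1750.0 to 3353 in MI, 2529 to 5855 in Sham libraries). The sums of smooth muscle, endothelial and erythroid markers overlapped between the groups. No marker gene was listed at 0 in all libraries of a group.

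Among the adenine nucleotide and phosphate carriers, 3 of 7 tested fell and 2 rose. Beside this and the other groups by substrate, 20.1% of all loci were lower and 20.8% higher. Slc25a4 (ANT1, the ADP/ATP carrier of heart and skeletal muscle; chr8:47292698-47296363 on mm9) had 350761, 466077, 393489 and 443022 normalised reads in MI replicates 1 to 4, against 624575, 557914, 725020.1 and 624088 in Sham replicates 1 to 4. Every MI library lay below every Sham library, MI replicate 1 was the lowest and Sham replicate 3 the highest. The mean fell by 34.7% (-0.62 ± 0.13, adjusted p = 0.0029). Slc25a3 (the phosphate carrier, which also brings copper into the matrix; chr10:90575537-90588837) had 122869, 147174, 131756 and 141603 normalised reads in MI replicates 1 to 4, against 201878, 186800.0, 226899.7 and 202042 in Sham replicates 1 to 4. It showed the same order of libraries at both ends, without overlap, and the mean fell by 33.5% (-0.59 ± 0.09, adjusted p = 0.000627).

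Slc25a5 (ANT2, the ADP/ATP carrier of many dividing and non-muscle cells; chrX:34335647-34338801) had 33811, 37763, 36900.0 and 39659 normalised reads in MI replicates 1 to 4, against 38760.0, 29784, 43847 and 31458 in Sham replicates 1 to 4. The MI libraries lay within the range of the Sham libraries, which was the wider one, and the difference did not pass (0.06 ± 0.12, adjusted p = 0.731). With library-total scaling, Slc25a5 passed as higher in MI (0.37, adjusted p = 0.00764). Slc25a31 (ANT4, known from testis) was close to the low end of what was tested, with 24.5, 36.2, 23.1 and 55.8 normalised reads in MI replicates 1 to 4, against 62.1, 52.4, 51.2 and 66.2 in Sham replicates 1 to 4. MI replicate 4 lay among the Sham libraries. Its difference was -0.80 ± 0.29, adjusted p = 0.047, and the call was lost in 7 of 8 fits that left out 1 library (adjusted p up to 0.123) and with edgeR (0.0736) and DESeq2 (0.0604). How the authors' counting treated reads shared by the ADP/ATP carrier genes is not given in the sources used here.

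Of the 3 tested ATP-Mg/phosphate carriers, which calcium activates, 2 rose. Slc25a24 (SCaMC-1; chr3:108923400-108971327) had 1703, 1305, 1827 and 1760.1 normalised reads in MI replicates 1 to 4, against 986, 1057, 980.0 and 1033 in Sham replicates 1 to 4. All MI libraries were above all Sham libraries, and the mean was 62.6% higher (0.69 ± 0.11, adjusted p = 0.000673). Slc25a23 (SCaMC-3) averaged 9279.8 ± 976 normalised reads in MI and 7596 ± 793 in Sham hearts (SD, n = 4 each). This smaller increase of 0.29 (adjusted p = 0.0337) showed no overlap, yet passed in only 3 of the 8 fits without 1 library (adjusted p up to 0.0944). Slc25a25 (SCaMC-2) was the most variable tested carrier, with 1182, 3200.2, 1687 and 1311 normalised reads in MI replicates 1 to 4, against 1222, 2075, 3669.7 and 1107 in Sham replicates 1 to 4. MI replicate 2 and Sham replicate 3 were both far above the rest of their groups, and the difference was -0.08 ± 0.39, adjusted p = 0.896. The coefficient of variation of Slc25a25 was 50.3% in MI and 58.6% in Sham hearts. Slc25a41, the remaining member of this group, had 2, 1, 0 and 2 reads in the MI libraries and 3, 0, 0 and 0 in the Sham libraries and was not tested.

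Of the 4 tested carriers of carboxylic acids, 2 fell and 1 rose. Slc25a11 (the oxoglutarate/malate carrier of the malate-aspartate shuttle; chr11:70447402-70461192) had 44382, 54083, 47427 and 51119 normalised reads in MI replicates 1 to 4, against 76804, 69655, 82011 and 75220.2 in Sham replicates 1 to 4. The groups were well apart, with MI replicate 1 the lowest and Sham replicate 3 the highest library, and the mean fell by 35.1% (-0.63 ± 0.08, adjusted p = 0.000255). Slc25a35, an orphan relative of the dicarboxylate carriers, averaged 709.7 ± 30.4 normalised reads in MI and 1021 ± 132 in Sham hearts (-0.52 ± 0.10, adjusted p = 0.00286). Slc25a10 (the dicarboxylate carrier, which exchanges malate or succinate for phosphate) averaged 2228 ± 234 normalised reads in MI and 2223 ± 89.7 in Sham hearts and did not pass (-0.00 ± 0.09, adjusted p = 0.988).

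Slc25a1 (the citrate carrier, which exports citrate for fatty acid and sterol synthesis; chr16:17925316-17928261) had, with Slc25a43, one of the largest increases of the family. It had 1059, 929, 1387 and 1169 normalised reads in MI replicates 1 to 4, against 728, 520.4, 683 and 467 in Sham replicates 1 to 4. All MI libraries were above all Sham libraries, MI replicate 3 was the highest, and the mean was 89.5% higher (0.93 ± 0.17, adjusted p = 0.00136). MI replicate 3 also had the highest sum of 5 adipocyte markers, at 14045 normalised reads, against 178 to 1531 in the other MI libraries and 30.7 to 64.5 in the Sham libraries. Without MI replicate 3 the difference of Slc25a1 was 0.83 (adjusted p = 0.00462). The other MI libraries also lay above the Sham libraries in the marker sum, and a part of adipocytes in the difference was not tested. Slc25a21 (the oxodicarboxylate carrier) was not tested, with 2, 0, 5 and 3 reads in the MI libraries and 6, 5, 3 and 4 in the Sham libraries.

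**Figure D2:**
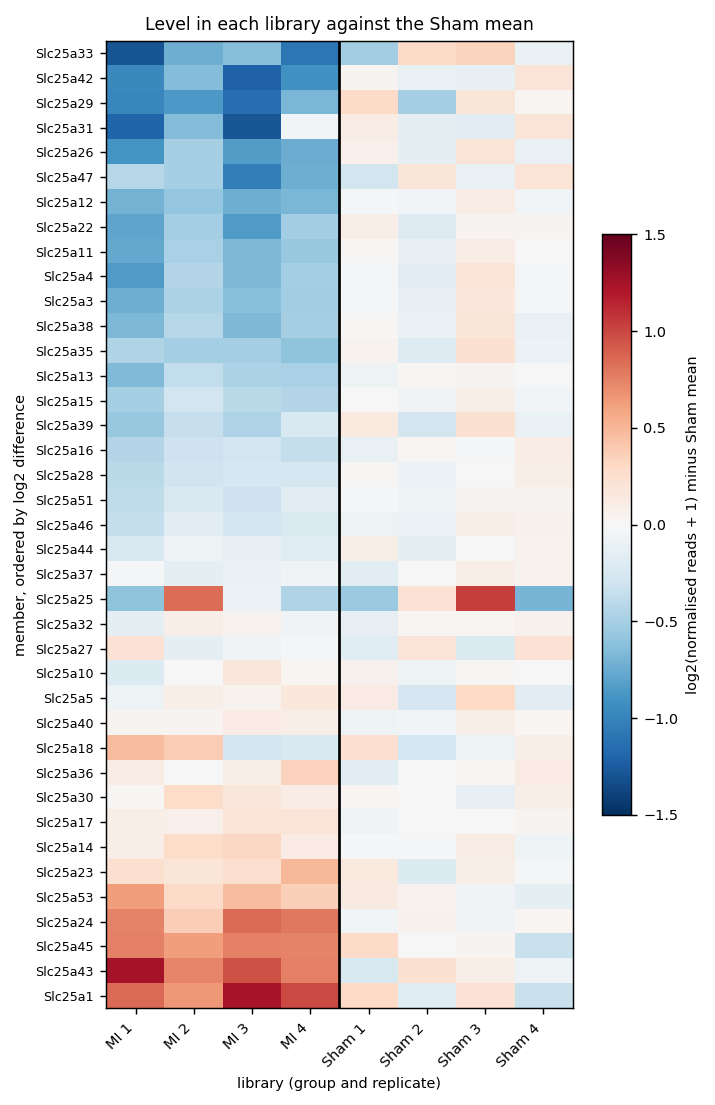
Level of each tested carrier in each library (columns, MI then Sham) as log2(normalised reads + 1) minus the Sham mean, with carriers ordered by their difference. Carriers at the top are blue in all or nearly all MI libraries, those at the bottom are red in all MI libraries, and Slc25a25 varies within both groups.

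Amino acid carriers held the largest number of falls, with 7 lower and 1 higher of 10 tested and a median of -0.53. They were also the group with the most members tested, and 5 of 8 nucleotide and cofactor carriers fell. Both aspartate/glutamate carriers, which carry the other arm of the malate-aspartate shuttle, fell. Slc25a12 (aralar, the form of heart and brain; chr2:71107856-71205796) had 21813, 23836, 21417 and 22177 normalised reads in MI replicates 1 to 4, against 35075, 34550.3, 38294 and 34484 in Sham replicates 1 to 4. The MI libraries lay close to each other and far below the Sham libraries, and the mean fell by 37.3% (-0.67 ± 0.07, adjusted p = 4.03e-05). Its adjusted p was the lowest of the family. Slc25a13 (citrin, the form best known from liver) had 15365, 18884, 17456 and 17298 normalised reads in MI replicates 1 to 4, against 23038, 24774, 25073 and 24468 in Sham replicates 1 to 4. Its groups did not overlap and its mean fell by 29.1% (-0.50 ± 0.07, adjusted p = 0.000454).

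Slc25a29 (a carrier of basic amino acids) showed the largest fall of the amino acid group. It had 661, 718, 590.5 and 813 normalised reads in MI replicates 1 to 4, against 1589, 924, 1484 and 1326 in Sham replicates 1 to 4, with Sham replicate 2 apart from the other Sham libraries but still above all MI libraries, and the mean fell by 47.7% (-0.91 ± 0.17, adjusted p = 0.00156). Slc25a22 (a glutamate carrier) averaged 3733 ± 459 normalised reads in MI and 5915 ± 508 in Sham hearts (-0.67 ± 0.10, adjusted p = 0.000485). Slc25a38 (the glycine carrier needed for haem synthesis) averaged 1759.7 ± 155 normalised reads in MI and 2606 ± 253 in Sham hearts (-0.57 ± 0.09, adjusted p = 0.000875). Slc25a15 (the ornithine carrier of the urea cycle) fell by 24.5% (-0.41 ± 0.07, adjusted p = 0.00157). Slc25a47, first described in liver, fell by 37.1% (-0.67 ± 0.15, adjusted p = 0.00517).

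Slc25a45 was the amino acid group member that rose, with 1053, 959, 1045 and 1043 normalised reads in MI replicates 1 to 4, against 758, 625, 638 and 490.3 in Sham replicates 1 to 4 (0.72 ± 0.13, adjusted p = 0.00118). No MI library was as low as any Sham library. Slc25a44 (a branched-chain amino acid carrier) had a difference of -0.15 ± 0.07, adjusted p = 0.117, and Slc25a18 (the second glutamate carrier) one of 0.09 ± 0.25, adjusted p = 0.812 at 40.5 normalised reads in MI and 37.4 in Sham hearts. Slc25a48 had 1 read in each of MI replicates 2 and 4 and none in the other 6 libraries, and was not tested.

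Among nucleotide and cofactor carriers 5 of 8 fell and 0 passed as higher. Slc25a33 and Slc25a42 were, with the amino acid carrier Slc25a29, the carriers that fell furthest in the family. Slc25a33 (a pyrimidine nucleotide carrier; chr4:149113369-149148376) had 1901, 2823, 3009 and 2206 normalised reads in MI replicates 1 to 4, against 3269, 5730.5, 5879 and 4358 in Sham replicates 1 to 4. The highest MI library was below the lowest Sham library by a small margin, both groups were spread out, and the mean fell by 48.3% (-0.94 ± 0.20, adjusted p = 0.00359). Slc25a42 (the carrier of coenzyme A; chr8:72708239-72736155) had 6107, 7588, 5159.5 and 6386 normalised reads in MI replicates 1 to 4, against 12283, 11048, 10954 and 13695 in Sham replicates 1 to 4. Here the groups were well apart, with a fall of 47.4% (-0.93 ± 0.12, adjusted p = 0.000165).

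Slc25a26 (the S-adenosylmethionine carrier, which supplies methyl groups to the matrix) averaged 2077 ± 265 normalised reads in MI and 3476 ± 385 in Sham hearts (-0.74 ± 0.11, adjusted p = 0.000393). Slc25a16, a carrier linked to coenzyme A through its yeast relative, fell by 21.5% (-0.35 ± 0.07, adjusted p = 0.00302), and Slc25a51 (the NAD carrier) fell by 17.2% (-0.27 ± 0.07, adjusted p = 0.00766). Scaled to the library total, the fall of Slc25a51 turned to 0.033 and neither of these calls was kept. Slc25a36 (the second pyrimidine nucleotide carrier) had a difference of 0.14 ± 0.09, adjusted p = 0.247, and Slc25a32 (the folate and FAD carrier) one of -0.01 ± 0.08, adjusted p = 0.948. In limma, Slc25a36 passed as higher when scaled to the library total (0.44, adjusted p = 0.00267). It also did so scaled to the total outside the mitochondrial genome (0.33, adjusted p = 0.0101). Slc25a17, a carrier of the peroxisomal membrane, had 2089, 2061, 2251 and 2232 normalised reads in MI replicates 1 to 4, against 1885, 1954, 1951 and 2002 in Sham replicates 1 to 4. All MI libraries lay above all Sham libraries, and the difference was 0.15 ± 0.07, adjusted p = 0.109, the nearest to the threshold among carriers that did not pass. Count tests on the rebuilt reads called it higher, with an adjusted p of 0.0396 in edgeR's quasi-likelihood test and 0.0369 in DESeq2. In limma it passed as higher when scaled to the library total (0.45, adjusted p = 0.000897) or to the total outside the mitochondrial genome (0.34, adjusted p = 0.00281).

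Iron and glutathione carriers fell in part. Slc25a28 (mitoferrin 2, the widely used iron importer) averaged 2558 ± 119.9 normalised reads in MI and 3169 ± 158 in Sham hearts (-0.31 ± 0.07, adjusted p = 0.00527). Slc25a37 (mitoferrin 1, the form of erythroid cells) averaged 2983 ± 108 normalised reads in MI and 3157 ± 243 in Sham hearts and did not pass (-0.08 ± 0.08, adjusted p = 0.43). Slc25a39 (a glutathione carrier) had 9936, 11576, 10715 and 12554 normalised reads in MI replicates 1 to 4, against 16337, 12189, 17236 and 13750.2 in Sham replicates 1 to 4. MI replicate 4 was above Sham replicate 2, and the difference was -0.40 ± 0.12, adjusted p = 0.0174, which missed the threshold without MI replicate 1 (adjusted p = 0.0519). Slc25a40, its paralog, had a difference of 0.08 ± 0.08, adjusted p = 0.427. In limma Slc25a40 passed as higher when scaled to the library total (0.39, adjusted p = 0.0022) or to the total outside the mitochondrial genome (0.27, adjusted p = 0.0111). Scaled to the library total the values of Slc25a28 and Slc25a39 were -0.0014 and -0.09, and neither passed.

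Of the 3 relatives of the uncoupling proteins in the family, 0 passed in limma, edgeR or DESeq2 with the main scaling of each. Among them 0 had an unadjusted limma p under 0.05. With library-total scaling, Slc25a14 (0.51, adjusted p = 0.00475) and Slc25a30 (0.45, adjusted p = 0.00342) passed as higher, as they did scaled to the total outside the mitochondrial genome (adjusted p = 0.0177 and 0.0133). Slc25a14 (UCP5) averaged 283 ± 21.3 normalised reads in MI and 246 ± 13.1 in Sham hearts (0.20 ± 0.11, adjusted p = 0.189), Slc25a30 (KMCP1) had a difference of 0.15 ± 0.09, adjusted p = 0.228, and Slc25a27 (UCP4) one of -0.00 ± 0.13, adjusted p = 0.983. Among the remaining members, Slc25a43, an orphan carrier, had 195, 137, 159 and 138 normalised reads in MI replicates 1 to 4, against 69.2, 95.7, 86.4 and 77.3 in Sham replicates 1 to 4. Every MI library was above every Sham library, by 91.3% in the mean (0.92 ± 0.18, adjusted p = 0.0021). Slc25a53, also an orphan, averaged 296 ± 30.7 normalised reads in MI and 219 ± 17.7 in Sham hearts (0.43 ± 0.13, adjusted p = 0.0187), and missed the threshold without MI replicate 1 (adjusted p = 0.0566) or Sham replicate 4 (adjusted p = 0.0506). Slc25a46, a member of the outer membrane that acts in mitochondrial shape, averaged 8932 ± 520.4 normalised reads in MI and 10694 ± 712 in Sham hearts (-0.26 ± 0.07, adjusted p = 0.015), and its sign turned to 0.048 when scaled to the library total. Slc25a54 had 4, 0, 1 and 2 reads in the MI libraries and 0, 0, 0 and 1 in the Sham libraries and was not tested.

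Levels between carriers were compared as normalised reads per kb of spliced length, taken from the known transcript of the locus with the most exons. Slc25a4 stood far above the rest at 374739 ± 46737 per kb in MI and 573798 ± 62497 in Sham hearts (SD, n = 4 each). Slc25a3 followed at 89848 ± 7109 in MI and 135188 ± 10987 in Sham hearts, then Slc25a11 at 29941 ± 2576 and 46154 ± 3092, and Slc25a5 at 29914 ± 1969 and 29049 ± 5286. Slc25a11 and Slc25a5 did not differ beyond their spread in MI hearts, whereas in Sham hearts Slc25a11 was clearly the higher. Next came Slc25a39 at 7716 ± 777 in MI and 10254 ± 1601 in Sham hearts and Slc25a12 at 7630.2 ± 364 and 12175 ± 621. Both overlapped within their spread in MI hearts, and Slc25a12 was the higher by more than its SD in Sham hearts. Slc25a13 was at 5630.1 ± 472 and 7943 ± 294.

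Below these 7, levels per kb ran down to 22.6 for Slc25a31 in MI hearts and 27.4 for Slc25a18 in Sham hearts among tested carriers. Some carriers changed place in the order: Slc25a29 was at place 34 in MI and 26 in Sham hearts, Slc25a1 at 25 and 31, and Slc25a23 at 8 and 13. All carriers with a locus summed to 772376 ± 75604 normalised reads in MI and 1126650 ± 103942 in Sham hearts (SD, n = 4 each). That was 0.540%, 0.587%, 0.540% and 0.566% of all signal in MI replicates 1 to 4, and 0.665%, 0.625%, 0.693% and 0.650% in Sham replicates 1 to 4. No MI library reached the share of any Sham library. Slc25a4 alone made up 53.4 ± 1.48% of the sum in MI and 56.1 ± 0.929% in Sham hearts, and the 4 largest carriers together 82.2 ± 0.854% and 84.4 ± 0.588%.

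With the deposited scaling, the carriers that fell were in the median more abundant than those that rose or did not pass. Of the 10 carriers with the highest Sham level per kb, 9 fell, with Slc25a5 the exception, beside 20.1% of all loci. The share among equally abundant loci was not counted. Of the 9, Slc25a39, Slc25a46 and Slc25a51 did not pass when scaled to the library total or to the total outside the mitochondrial genome. The carriers that fell had a median of 1572 normalised reads per kb in MI and 2450.4 in Sham hearts, those that rose 505 in MI and 309.8 in Sham hearts, and those that did not pass 717 and 759. Across the 39 tested carriers Spearman's rho between Sham level per kb and difference was -0.52 (-0.47 with the joined length of all exons). This is a description over genes measured in the same libraries, and the Sham values enter both quantities.

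**Figure D3:**
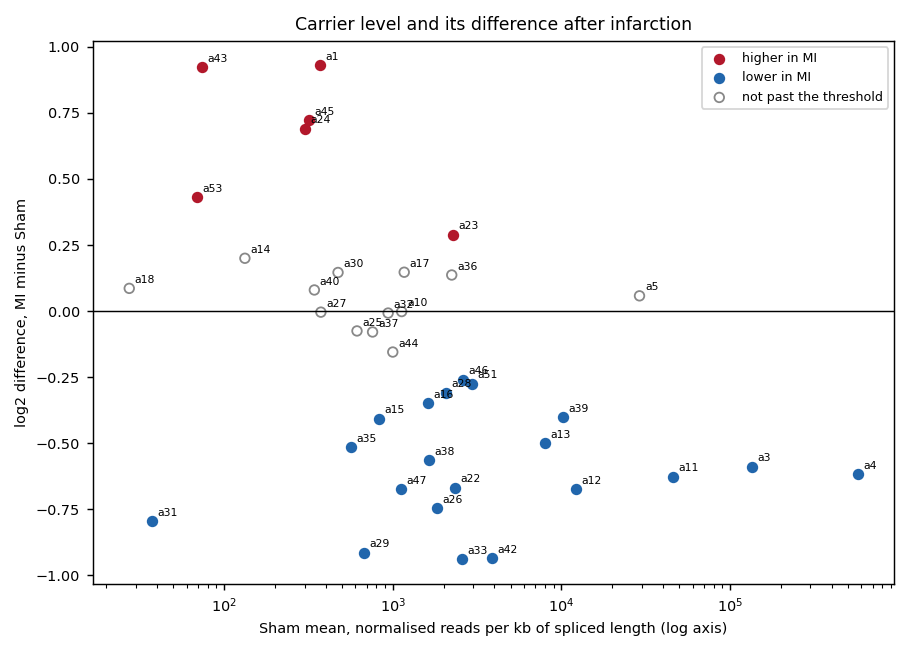
Difference of each tested carrier (y axis, log2, MI minus Sham) against its Sham mean in normalised reads per kb of spliced length (x axis, log scale). Red points rose, blue points fell and open points did not pass; labels leave out the letters Slc25. Of the 10 rightmost carriers, 9 are blue with the deposited scaling and Slc25a5 is open.

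Some members share a substrate with a close relative, and the balance between the genes of such pairs was compared in each library. Each of 7 pairs was examined with a 2-sided exact permutation test over samples (smallest possible p 0.0286) adjusted over the 7 pairs. The pairs were chosen with earlier results of these data known, so these p-values only describe how far the ratios were apart. Slc25a5 relative to Slc25a4, as a ratio of normalised reads, was 0.0964, 0.081, 0.0938 and 0.0895 in MI replicates 1 to 4, against 0.0621, 0.0534, 0.0605 and 0.0504 in Sham replicates 1 to 4. The 2 ranges were apart, and the log2 ratio was 0.67 higher in MI hearts (exact permutation p = 0.0286, adjusted p = 0.04). Per kb, Slc25a5 made up 7.91%, 6.73%, 7.71% and 7.39% of the ADP/ATP carrier signal in MI replicates 1 to 4, and 5.24%, 4.54%, 5.11% and 4.30% in Sham replicates 1 to 4. A ratio within a library does not depend on the scaling.

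Slc25a36 relative to Slc25a33, the pyrimidine nucleotide carriers, was 3.88, 2.4, 2.44 and 3.92 in MI replicates 1 to 4, against 1.87, 1.2, 1.18 and 1.71 in Sham replicates 1 to 4. Its log2 ratio was 1.07 higher in MI hearts, the widest shift among the 7 pairs (adjusted p = 0.04). Slc25a18 relative to the other glutamate carrier Slc25a22 was 0.75 higher (adjusted p = 0.04), Slc25a40 relative to the other glutathione carrier Slc25a39 was 0.48 higher (adjusted p = 0.04), and Slc25a37 relative to the other mitoferrin Slc25a28 was 0.23 higher (adjusted p = 0.04). In each of these 5 pairs the MI and Sham ratios did not overlap. All 5 were at the smallest possible p, and their adjusted p of 0.04 depends on how many of the 7 chosen pairs reached it. Slc25a24 relative to Slc25a23 was 0.40 higher (exact permutation p = 0.0571, adjusted p = 0.0667) and Slc25a13 relative to Slc25a12 was 0.17 higher (exact permutation p = 0.0857, adjusted p = 0.0857), both short of the threshold.

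With any 1 library left out, the adjusted p of these 5 pairs lay between 0.05 and 0.0857, so none was under 0.05 in the 8 such fits. Ratios that did not overlap with all libraries cannot overlap with fewer, so this cannot show that a pair rests on 1 library. With so few arrangements, the adjusted p depends on how many pairs reach the smallest possible p. The direction was kept in every such fit.

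**Figure D4:**
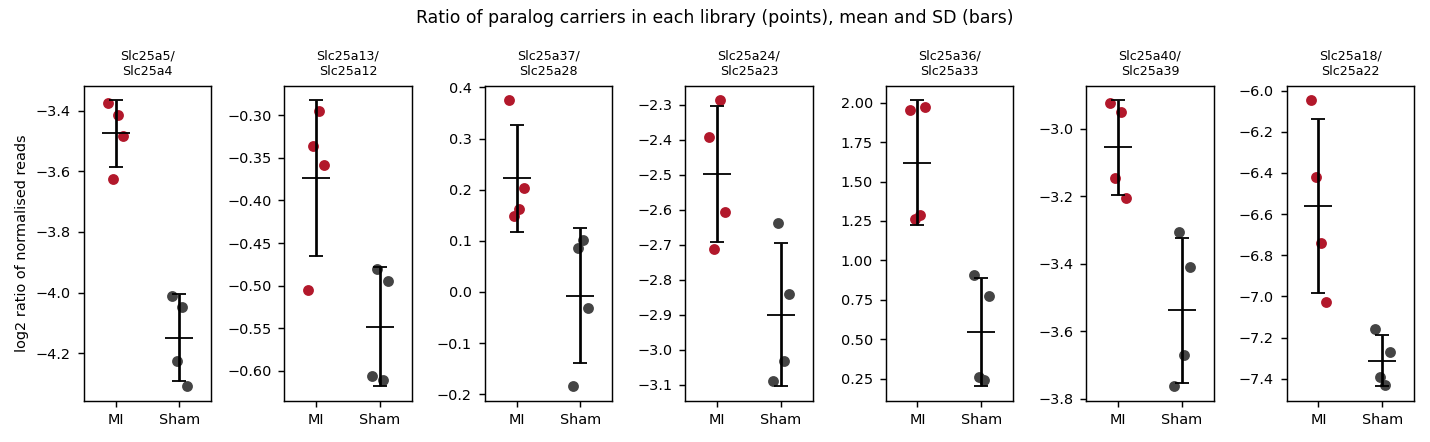
Log2 ratio of normalised reads of 7 carrier pairs in each library (points; MI in red on the left, Sham in grey on the right), with the group mean and SD as bars. Each panel has its own y axis; in 5 panels the MI points lie above all Sham points, and in those of Slc25a13/Slc25a12 and Slc25a24/Slc25a23 the groups overlap.

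Genes that act with the carriers were counted in the same test, with the deposited scaling. For each list the shares to set beside it are 20.1% of all loci lower and 20.8% higher. Of 21 tested transporters of the inner membrane outside the Slc25a symbols, 11 fell and 5 rose, with a median of -0.26. The number that rose was near the share of all loci. The largest differences there were in Sfxn3 (a sideroflexin, 1.03 ± 0.10, adjusted p = 3.46e-05), Ucp3 (the uncoupling protein of muscle, -1.02 ± 0.11, adjusted p = 8.43e-05) and Mcub (the inhibitory subunit of the calcium uniporter, 0.96 ± 0.16, adjusted p = 0.000951). The count of 5 became 3 without MI replicate 3, MI replicate 4 or Sham replicate 4. Of 11 tested genes of the import route that inserts carriers into the inner membrane, 2 fell, near the share of all loci, and 0 rose. Their median was -0.24, and the 2 that fell are named next. These were Timm29 (-0.47 ± 0.07, adjusted p = 0.000657) and Timm8b (-0.33 ± 0.11, adjusted p = 0.0381), and the count ran from 1 without MI replicates 1, 2 or 3 or Sham replicates 1 or 3 to 5 without Sham replicate 2. With upper-quartile scaling 8 of the 11 passed as lower.

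Of 15 enzymes and pores listed as working with the carriers, 11 fell and 2 rose, with a median of -0.46. Got1, the cytosolic aminotransferase of the malate-aspartate shuttle, fell (-0.67 ± 0.11, adjusted p = 0.00066), as did Hk2, the muscle hexokinase that binds the mitochondrial surface (-0.65 ± 0.08, adjusted p = 0.000182). Ckmt1, the ubiquitous mitochondrial creatine kinase, rose (2.49 ± 0.23, adjusted p = 3.12e-05) at the low level of 98.5 normalised reads in MI and 16.7 in Sham hearts. Another list held 11 tested genes of iron-sulphur cluster and haem synthesis and of iron uptake, and 8 fell and 1 rose, with a median of -0.44. Such synthesis uses the iron and glycine that mitoferrins and Slc25a38 import. The 1 that rose was Tfrc, a gene of iron uptake. The largest differences were in Alas2 (the erythroid enzyme that starts haem synthesis, -0.80 ± 0.26, adjusted p = 0.0297), Tfrc (the transferrin receptor, 0.62 ± 0.21, adjusted p = 0.0371) and Nfs1 (the cysteine desulphurase, -0.56 ± 0.08, adjusted p = 0.000375). The increase of Tfrc passed with MI replicate 3 or Sham replicate 1 left out, and missed the threshold with any of the other 6 libraries left out. Scaled to the library total, where 7.81% of all loci were lower and 44.4% higher, 2 of the transporters passed as lower and 8 as higher, 1 and 4 of the import genes, 7 and 4 of the enzymes and pores, and 3 and 2 of the iron-sulphur and haem genes. Nuclear subunits of oxidative phosphorylation fell in 18 of 18 under either scaling, with a deposited-scaling median of -0.62, below the carriers' median.

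**Figure D5:**
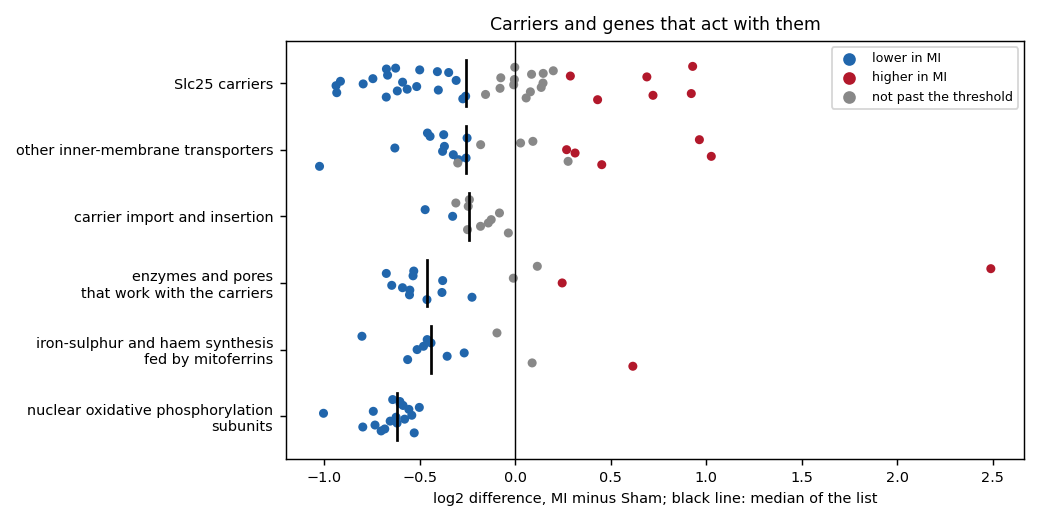
Log2 difference (MI minus Sham, x axis) of the tested Slc25 carriers and of 5 lists of genes that act with them; each point is a gene and each black line the median of its list. Blue points fell, red points rose and grey points did not pass; the medians of the carriers and of the other transporters are both -0.26, and that of oxidative phosphorylation is -0.62.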

How the data were processed

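Poly(A)-selected RNA of 8 heart samples was sequenced in pairs. Per the submitters' processing notes the authors worked on build mm9 and used DESeq, HTSeq 0.5.4p2, Cufflinks 2.0.2 and TopHat2 2.0.5, with settings not given in the sources. The deposited values are a normalised signal per locus, and all are whole multiples of 1 step per library within 1e-06, so whole reads were rebuilt for the count tests only. A count of 0 allows up to 3 reads, or 1.99 to 4.73 normalised reads, which covers counting error only. Libraries were no duplicates of each other (chi-square per degree of freedom 31.2 to 133 within groups).

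The deposited loci carry no gene symbols. A locus took a GENCODE M21 name where at least 2 of its intron lengths (1 in genes with few introns) equalled those of a gene on the same chromosome and strand, with an offset within 200000 bases of its neighbours. This named 19999 of 35299 loci. The same search with decoys gave 9 names beside 18320 found by at least 2 introns and 197 beside 1679 found by 1 intron; all carriers were matched by at least 2. The other mitochondrial and marker genes were named in the same way.

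Differences were fitted with limma 3.58.1 (trended variance) in R 4.3.3 on log2(value + 1), which understates changes of low loci, over 19186 loci with a mean of at least 10, and p-values were adjusted over all of them. The fit was tested on simulated data. The alternatives were edgeR 4.0.16 and DESeq2 1.42.0 on the rebuilt reads, 4 other scalings, other pseudocounts and filters, thinning, a robust fit, a replicate block and leaving out each library. Every member is named; of each other list, at most the 3 called genes with the largest change are. The members, lists and pairs were chosen with earlier results of these data known, and the motifs after the sequences were read.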

Additional observations from a re-analysis of the deposited data

Results flagged for a closer look

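In 2 of 78 sets of 4 libraries (39 tested carriers, MI and Sham each), 1 library stood apart from the other 3 by the gap-to-range measure; chance alone marks about 1 set in 20. Slc25a45 had 958.6 normalised reads in MI replicate 2, against 1043 to 1053 in the other MI libraries. Slc25a12 had 38294 normalised reads in Sham replicate 3, against 34484 to 35075 in the other Sham libraries. Both carriers passed the threshold in all 8 fits without 1 library.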

How the results depend on the processing

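Scaling moved the counts most. Scaled to the library total, 11 of 39 carriers passed as lower (7.81% of all loci) and 15 as higher (44.4% of all loci), and the carriers' median was 0.048, while the median of all tested loci was 0.29. Scaled to the total outside the mitochondrial genome, 14 passed as lower (11.2% of all loci) and 12 as higher (33.2% of all loci), and the medians were -0.068 and 0.17. Under the first of these 8 carriers changed sign, and under the second 6. The 8 were Slc25a46 (0.048), Slc25a51 (0.033), Slc25a44 (0.15), Slc25a25 (0.23), Slc25a37 (0.23), Slc25a27 (0.30), Slc25a32 (0.30) and Slc25a10 (0.31). Of these, only Slc25a46 and Slc25a51 had passed with the deposited scaling. Slc25a10 and Slc25a37 passed as higher under 1 of the 5 scalings and Slc25a32 under 2. Slc25a14, Slc25a17, Slc25a30, Slc25a36 and Slc25a40 kept their sign and passed as higher under 2 of the 5. With no filter on low values the median was -0.15, since the 4 scarcest carriers then enter. Under the other planned settings 19 to 21 carriers were lower and 6 to 7 higher. The cause of these shifts was not tested.

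Leaving out 1 library gave 18 to 20 lower, 4 to 6 higher and a median of -0.29 to -0.23. The log2 ratios of the pairs then ran from 0.62 to 0.73 for Slc25a5/Slc25a4, 0.15 to 0.22 for Slc25a13/Slc25a12, 0.17 to 0.27 for Slc25a37/Slc25a28, 0.33 to 0.49 for Slc25a24/Slc25a23, 0.96 to 1.19 for Slc25a36/Slc25a33, 0.41 to 0.56 for Slc25a40/Slc25a39 and 0.59 to 0.91 for Slc25a18/Slc25a22.

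Deviations of same-numbered MI and Sham libraries had correlations of -0.00092 to 0.27, and those of differently numbered libraries -0.39 to 0.28. Whether the numbers pair the samples cannot be told from these values. With the replicate block 20 carriers were lower and 6 higher, and 39 of 39 kept their call. Over all loci the block gave 4056 lower and 4152 higher, against 3855 and 3999 without it. The 4 untested carriers had at most 6 reads in any library, too few for a comparison at this depth.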
